A study of Mus musculus with 33 samples.

Results

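SSEA1+ cells sorted on day 9 of reprogramming were compared with mouse embryonic fibroblasts (MEFs), the cells with which reprogramming began. The members were chosen by sample title alone, as the 3 libraries titled day 9 SSEA1+ and the 3 titled MEF, which are 6 of the 33 RNA-seq libraries of the series. The series held 11 cell populations with 3 libraries each: MEFs, and SSEA1+ and SSEA1- cells of days 3, 6, 9 and 12 and of the induced pluripotent stem (iPS) stage. Day 9 SSEA1+ cells, which the labels call sorted reprogramming intermediates, had been cultured in ES media to which dox and AA were added. MEFs had been grown in MEF media. Both groups have the strain label 129SV/Jae/C57BL6J, and the labels give no transgene, age or sex for either. The protocol text is the same for both: trypsin harvest, antibody staining, FACS, RNA isolation with the RNeasy Micro Kit, and poly-A selected libraries made with the NEBNext Ultra Directional kit. Stage and culture medium changed together between the groups, so their parts cannot be told apart. No label ties the 3 replicates of a group to separate cultures or animals, and the p-values may therefore reflect technical spread only.

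SSEA1, the Lewis X carbohydrate, is displayed by mouse embryonic stem cells and by cells of the early mouse embryo, and fibroblasts lack it. Reprogramming with Oct4 (Pou5f1), Sox2, Klf4 and Myc first turns off the mesenchymal programme of a fibroblast (matrix, contractile fibres, migration) and turns on an epithelial one (E-cadherin junctions, keratins). The transcription factor network that keeps embryonic stem cells pluripotent is switched on in stages after that. Cells that display SSEA1 during this process are known to give rise to iPS cells more often than cells that do not.

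The day 9 SSEA1+ libraries held 24869775, 23184272 and 19619062 reads counted to genes, and the MEF libraries held 23013702, 14373569 and 8927873, in the order of replicates 1, 2 and 3, an order kept for all values below. Levels are given as CPM, a gene's count relative to the total of its library, scaled between libraries by the trimmed mean of M-values. A count of 3 reads is used below as the floor for genes at 0, and covers counting error only. Before the scaling it equals 0.121 to 0.153 CPM in day 9 SSEA1+ libraries and 0.13 to 0.336 CPM in MEF libraries. The fold bounds below use the scaled totals, on which the floor is higher in each MEF library. The 20 genes with most reads took 6.3% to 7.49% of the counts in day 9 SSEA1+ libraries and 14.4% to 19.9% in MEF libraries. Pearson correlations of log levels between replicates were 0.975 to 0.983 among day 9 SSEA1+ libraries and 0.966 to 0.979 among MEF libraries.

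Between the groups the transcriptome changed widely, in both directions. Of 17326 genes tested, 6685 (38.6%) were called at a Benjamini-Hochberg adjusted p under 0.05 and a change of at least 2-fold, by edgeR's quasi-likelihood test over all 33 libraries. In day 9 SSEA1+ cells 3570 genes were higher (20.6%) and 3115 were lower (18.0%), and these shares are the background for the counts within each gene list below. Which direction had more called genes depended on the processing, as given in the last section. The median log2 fold change was 0.21 over all tested genes, 2.35 over the risen genes and -2.46 over the fallen genes. At least 16-fold changes were found for 1065 risen and 837 fallen genes. The fallen genes took 10.3% of the counts in day 9 SSEA1+ libraries and 46.3% in MEF libraries, whereas the risen genes took 20.3% in day 9 SSEA1+ libraries and 4.8% in MEF libraries. The groups did not overlap, with every day 9 SSEA1+ library above every MEF library, for 36.0% of tested genes, and the reverse held for 27.3%. Fewer cells of a type and less RNA per cell cannot be told apart in such bulk samples.

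**Figure D1:**
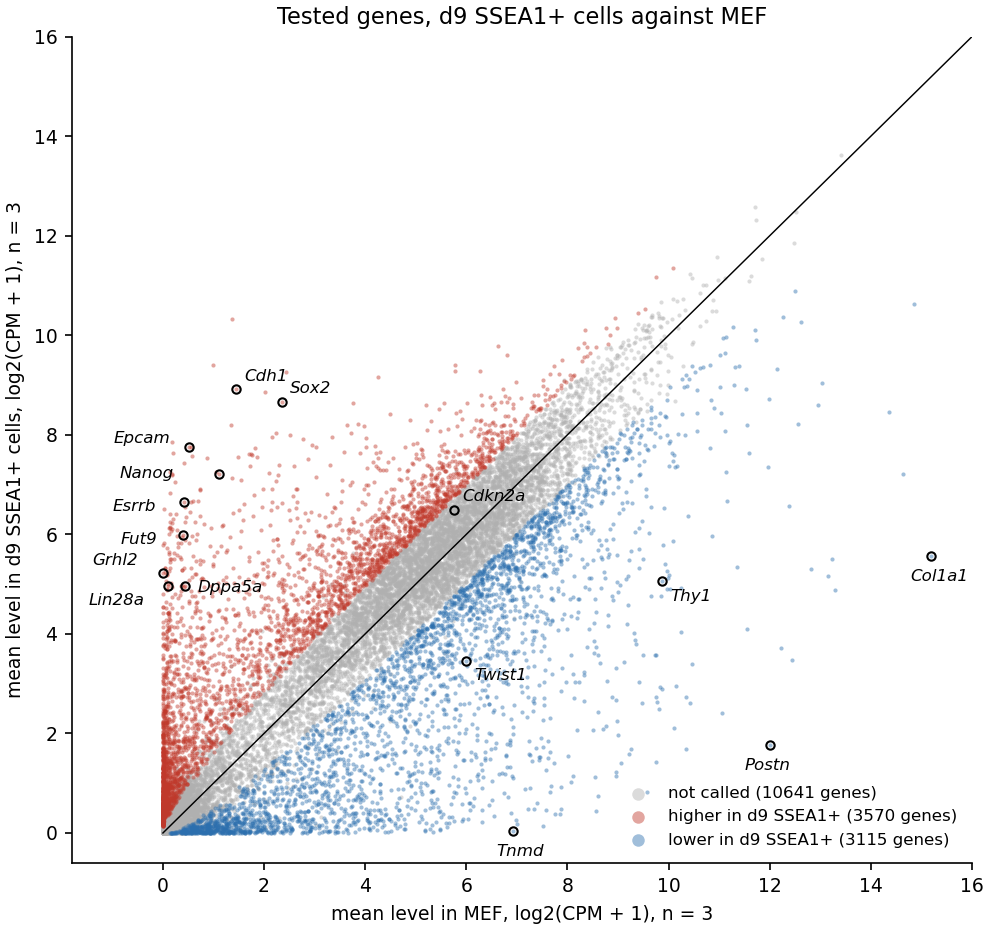
Mean level of each tested gene in day 9 SSEA1+ cells (vertical axis) against MEFs (horizontal axis), as log2(CPM + 1) on both axes, with called genes coloured and some named genes labelled. Of 17326 points, 3570 risen genes lie above the diagonal and 3115 fallen genes below it, with matrix genes such as Postn at the far lower right.

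Among called genes that averaged 10 CPM or more on their higher side, with no overlap, the 10 largest increases included epithelial and developmental transcription factors that had no read in any MEF library. Grhl2, which activates epithelial junction genes, stood at 39.8, 16.4 and 52.6 CPM in day 9 SSEA1+ libraries, at least 125-fold over the MEF floor (adjusted p = 5.1e-08). Its relative Grhl3 was at 11.5, 14.7 and 19 CPM, at least 51.8-fold higher. Every day 9 SSEA1+ library was thus above a group of MEF libraries at 0. Genes of other tissues stood beside them: Rfx4, a factor of the developing brain (31.4, 13.6 and 35.9 CPM, at least 93-fold higher), Pax2, of kidney and midbrain (10.9, 21.1 and 35.3 CPM, at least 77.2-fold), Gsx1, of the forebrain (23.7, 9.26 and 27.9 CPM, at least 69.8-fold) and Pax7, of muscle precursors and neural crest (20.2, 11.4 and 18.3 CPM, at least 57.3-fold). Slc12a3, the thiazide-sensitive salt transporter of the kidney, was at 4.02, 138 and 20.4 CPM, with replicate 2 far above the other 2 libraries (at least 187-fold, adjusted p = 1.0e-04). Cdcp1, a surface glycoprotein, had 27.8, 10.3 and 28.6 CPM (at least 76.5-fold), and Nodal, the ligand that patterns the early embryo, had 30.0, 8.68 and 14.9 CPM (at least 61.6-fold). Tac2, which encodes neurokinin B, was at 67.5, 108 and 93.1 CPM, while MEF libraries held a single read in replicate 1 (0.0581 CPM) and none in the others (adjusted p = 2.5e-06). These brain and kidney genes are named by the size of their change; of the neural list described below, 3 of 9 tested members rose, or 1 without MEF replicate 1 or without MEF replicate 2.

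By the same limits, several of the largest decreases were in genes of connective tissue. Postn, the matrix protein periostin, was at 4.89, 0.532 and 1.77 CPM in day 9 SSEA1+ libraries, against 3507, 4454 and 4380 CPM in MEF libraries (log2 fold change -10.74 ± 1.02, SE). Lrrc15, a surface protein of matrix-producing fibroblasts, fell to 0.497, 0.45 and 1.39 CPM, against 679, 764 and 842 CPM in MEFs (-9.95 ± 0.76). In both genes the groups were far apart, and groups without overlap were a condition of the ranking. Tnmd, the tendon membrane protein tenomodulin, kept reads in only 1 day 9 SSEA1+ library (0, 0 and 0.0957 CPM), against 176, 82.5 and 103 CPM in MEFs. Lrrc17 fell as well, to 0.414, 0.287 and 0.383 CPM, against 502, 258 and 370 CPM in MEFs (-10.01 ± 0.93). Tfpi2, a protease inhibitor of the matrix, had no read in the day 9 SSEA1+ libraries, at least 89.1-fold lower than the 12.6, 16 and 6.26 CPM of MEFs. Siglecg, Nxph4, Pgm5 and Htr2a were also among the largest decreases, each with 1 or 2 reads in total in the day 9 SSEA1+ libraries.

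**Figure D2:**
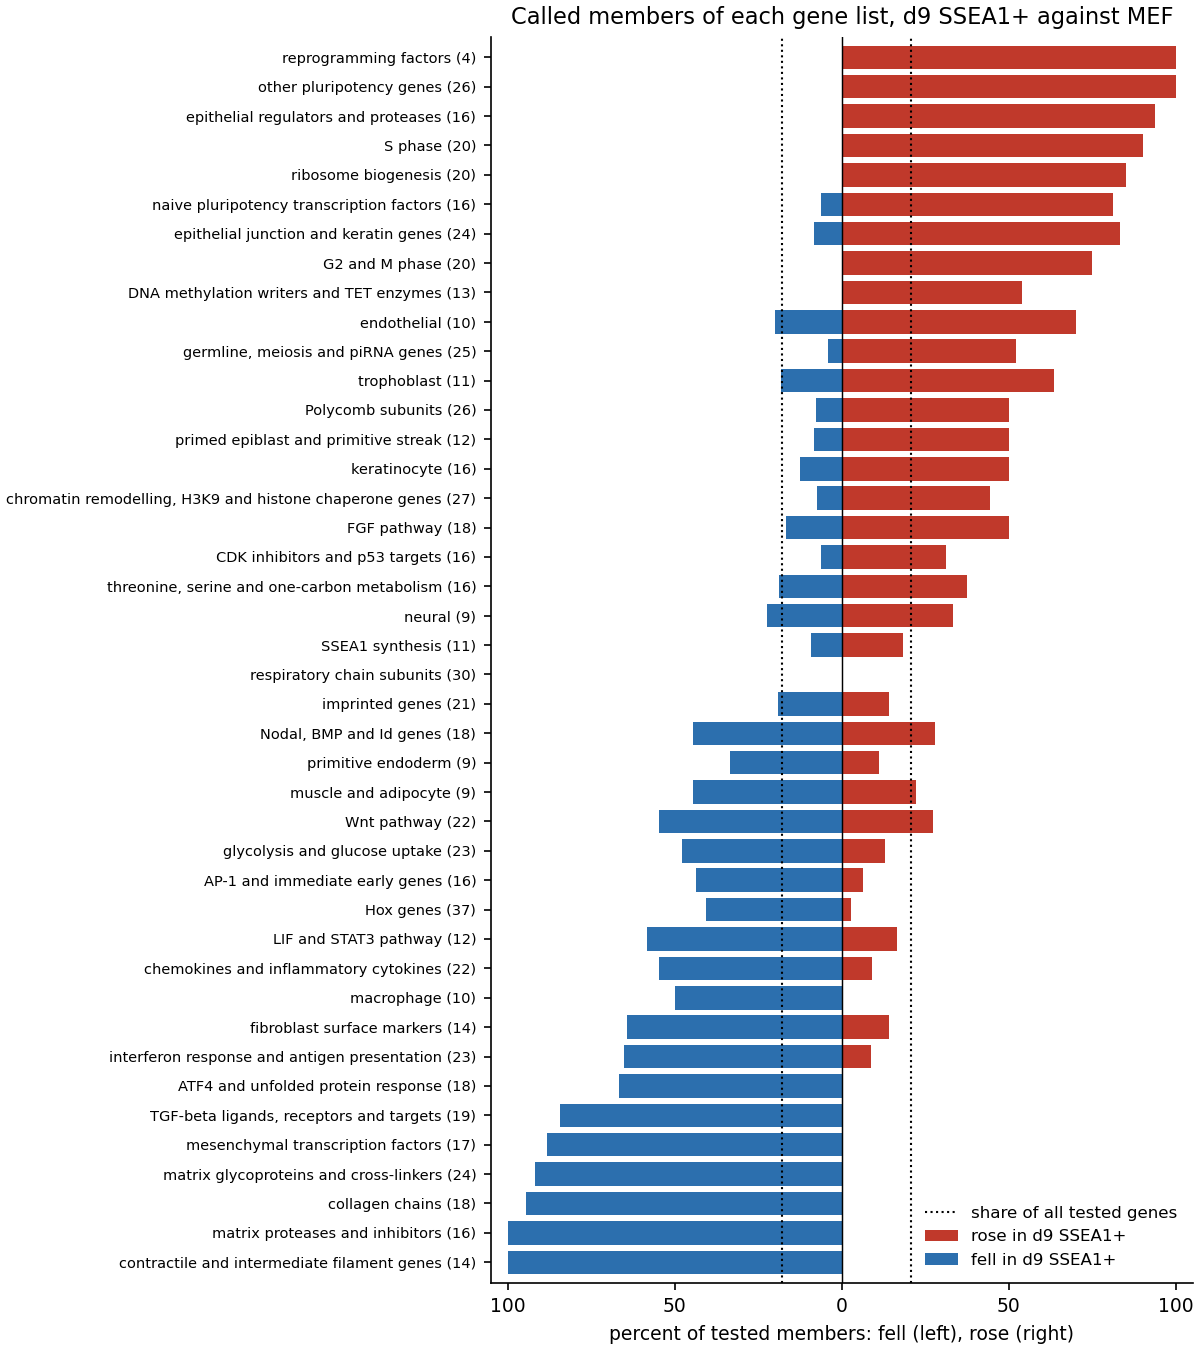
Share of the tested members of each gene list that rose (bars to the right) or fell (bars to the left) in day 9 SSEA1+ cells against MEFs, in percent, with the number tested after each name and the shares over all genes (20.6% and 18.0%) as dotted lines. Pluripotency, epithelial and S phase lists lie almost wholly on the right and matrix, contractile and TGF-beta lists almost wholly on the left.

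The 4 reprogramming factor genes rose together. Pou5f1 was at 191, 253 and 301 CPM in day 9 SSEA1+ libraries, against 4.82, 2.6 and 2.92 CPM in MEFs (log2 fold change 6.13 ± 0.83, adjusted p = 1.1e-06). Sox2 had 307, 396 and 516 CPM, against 5.81, 2.42 and 4.04 CPM in MEFs (6.61 ± 0.87). Klf4 and Myc were already expressed in MEFs and rose by 3.02 ± 0.39 and 3.16 ± 0.42, Myc to 844, 851 and 932 CPM against 87.2, 102 and 104 CPM. No group overlapped for these genes, and replicate 1 was the lowest of the day 9 SSEA1+ libraries in all 4. Counts per gene do not tell transcripts of the endogenous genes from those of any introduced copies, so these sources cannot be told apart. Oct4 and Sox2 bind as a pair to a composite DNA element, which occurs in the Nanog promoter and is shown here because Nanog is among the genes that rose. In the window from 250 bases before to 50 after the start of Nanog (chr6:122707239-122707538, + strand, GRCm38.p6, sequence from RefSeq) the element stood once, and its letters are in capitals:
Nanog: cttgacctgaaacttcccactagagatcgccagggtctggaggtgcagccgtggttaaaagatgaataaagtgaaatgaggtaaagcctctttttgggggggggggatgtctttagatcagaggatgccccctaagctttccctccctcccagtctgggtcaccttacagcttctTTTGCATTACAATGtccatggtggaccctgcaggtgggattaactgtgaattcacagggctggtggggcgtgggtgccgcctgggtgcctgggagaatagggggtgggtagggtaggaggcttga
The Nanog window was printed for holding the element. The form searched, with 1 base left free and on either strand, was in 2 of 32851 RefSeq promoter windows of this length, both of them of Nanog. Forms that differ at other bases were not searched, so the count speaks for this form alone. A match of letters is no evidence of binding.

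Of the 16 transcription factors listed for naive pluripotency, 13 rose and 1 fell, with a median log2 fold change of 6.49 against 0.21 over all genes. Nanog, a core factor of the network, was at 115, 142 and 187 CPM in day 9 SSEA1+ libraries, against 1.22, 1.02 and 1.25 CPM in MEFs. Tfcp2l1, which sustains naive self-renewal, was at 89.3, 117 and 96.4 CPM, against 0.814, 0.558 and 0.139 CPM in MEFs (7.45 ± 0.75). Zscan10, a zinc finger protein of embryonic stem cells, was at 43.5, 39.5 and 59.7 CPM, against 0.174, 0.093 and 0 CPM in MEFs (8.67 ± 0.97). Each of the 3 genes was thus near absent in every MEF library and clearly detected in every day 9 SSEA1+ library. Sall1, an already detectable relative of Sall4, was at 103, 150 and 181 CPM, against 3.84, 3.44 and 4.17 CPM in MEFs (5.25 ± 0.41, adjusted p = 2.1e-10). Zfp42 (Rex1), a marker of naive cells, was at 20.6, 14.7 and 14.2 CPM, against 0.291, 0.372 and 0 CPM in MEFs (6 ± 1.14). Prdm14, which represses the primed state, had 4.64, 9.87 and 11.7 CPM and in MEFs 2 reads in all, both in replicate 1 (0.116 CPM). The 3 members that did not rise, named after their values were seen apart from Klf2, were all Krüppel-like or T-box factors. Klf2 was at 10.4, 14.9 and 29.2 CPM, against 52.5, 44.7 and 60 CPM in MEFs, lower in every library but not called (-1.53 ± 0.74, adjusted p = 0.084). With only the 6 libraries in the fit it was called as lower (adjusted p = 0.007). The same held over all libraries with a GC correction (adjusted p = 0.039) and by the DESeq2 Wald test (adjusted p = 0.038). Without day 9 SSEA1+ replicate 3 the adjusted p was 0.049. Klf5 had overlapping groups (12.7, 16.3 and 24.5 CPM against 15.9, 4.37 and 9.18 CPM in MEFs). Tbx3 fell, to 8.87, 9.17 and 12 CPM against 33.2, 25.4 and 28.9 CPM in MEFs (-1.55 ± 0.55, adjusted p = 0.021), a call that was lost without day 9 SSEA1+ replicate 1.

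All 26 other pluripotency-associated genes on a second list rose (median log2 fold change 7.49, or 6.10 with the 3 members at 0 in MEFs set at their bounds). L1td1, an RNA-binding protein of pluripotent cells, was at 745, 606 and 666 CPM in day 9 SSEA1+ libraries, against 1.74, 0.558 and 0.696 CPM in MEFs (9.27 ± 0.83). Podxl, a sialomucin of the cell surface, had 1468, 1212 and 1191 CPM, against 2.73, 0.651 and 1.39 CPM in MEFs (9.58 ± 0.69, adjusted p = 6.2e-11). Utf1, a chromatin-bound factor of embryonic stem cells, had 116, 65.0 and 160 CPM, against 0.291 CPM in MEF replicate 1 and none in the others. Genes of the surface, of RNA binding and of chromatin alike were therefore near 0 in MEFs and high in each day 9 SSEA1+ library. Tdgf1, the Nodal co-receptor, was at 83.3, 195 and 117 CPM, against 0.349, 0.186 and 0 CPM in MEFs (9.19 ± 1.34). Genes known for late activation in reprogramming were also called: Dppa5a at 39.2, 18.5 and 32.9 CPM against 0.465, 0.465 and 0.139 CPM in MEFs, Dppa3 at 7.58, 3.97 and 13.4 CPM against 1 read in MEF replicate 3, and Dppa4 at 4.43, 3.73 and 5.22 CPM, at least 15.4-fold over MEFs at 0.

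Measured against iPS-stage SSEA1+ cells of the same series, day 9 levels differed by gene group, which is given as a description with no test. For the naive factors the mean day 9 level was a median 19.3% of the iPS mean (4.29% to 131%), and 11 of 16 were under 50%. For the other pluripotency genes the median was 23.1%, with 24 of 26 under 50%. Pou5f1 and Sox2 stood at 62.2% and 65.3% of the iPS level, and Klf4 and Myc at 174% and 17015%. For these 4 genes, reads of endogenous and any introduced copies cannot be told apart. Sall4 was at 27.0%, Esrrb at 14.8%, Nanog at 14.6%, Zfp42 at 6.4% and Dppa5a at 2.25%. Epithelial junction genes had in contrast a median of 124%, with 14 of 24 at or above the iPS mean. Podxl was at 1020% and L1td1 at 190% of it.

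Epithelial genes formed the other large group that rose. Of 24 tested junction and keratin genes, 20 rose and 2 fell (median log2 fold change 6.38, or 5.93 with the members at 0 at their bounds). Cdh1, which encodes E-cadherin, the adhesion molecule of epithelial junctions, was at 652, 214 and 579 CPM in day 9 SSEA1+ libraries, against 1.16, 3.9 and 0.139 CPM in MEFs (8.06 ± 0.94, adjusted p = 1.1e-07). Epcam, a second epithelial adhesion molecule, was at 236, 115 and 294 CPM, against 0.523, 0.465 and 0.278 CPM in MEFs. The tight junction claudin Cldn4 was at 124, 47.7 and 130 CPM, against 0.232, 1.49 and 0.139 CPM in MEFs (7.34 ± 0.72). Groups lay far apart in all 3, and replicate 2 was the lowest of the day 9 SSEA1+ libraries in each. Dsg2, a desmosomal cadherin, was at 30.7, 27.2 and 59.5 CPM, against 0.291, 0.558 and 0.557 CPM in MEFs (6.45 ± 0.45), and Lsr, a protein of tricellular junctions, at 26.7, 19.8 and 31.8 CPM, against 0.465, 0.651 and 0.557 CPM in MEFs (5.55 ± 0.52). Simple keratins were split. Krt8 was at 337, 60.8 and 180 CPM, against 3.25, 1.3 and 2.64 CPM in MEFs (6.3 ± 1), while its partner Krt18 was at 56.4, 13.1 and 29.0 CPM, against 18.1, 18.2 and 9.05 CPM in MEFs, with overlapping groups (1.11 ± 0.85, adjusted p = 0.28). The 2 members that fell, named after their values were seen, were Cdh3, or P-cadherin (13.2, 6.8 and 24.0 CPM against 183, 146 and 208 CPM in MEFs) and Krt7 (1.53, 0.328 and 0.766 CPM against 7.5, 5.49 and 6.4 CPM in MEFs).

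Of 16 epithelial regulators and proteases, 15 rose and none fell (median 8.09, or 7.13 with the members at 0 at their bounds). Esrp1, a splicing factor that sets epithelial isoforms, was at 67.2, 34.4 and 106 CPM in day 9 SSEA1+ libraries, against 0.174, 0.093 and 0 CPM in MEFs (9.21 ± 1.41). The matriptase gene St14 had 261, 119 and 188 CPM, against 0.465, 0.744 and 0.278 CPM in MEFs (8.52 ± 0.78), and its inhibitor Spint1 had 256, 156 and 181 CPM, against 0.116, 0.186 and 0.139 CPM in MEFs (10.38 ± 0.69, adjusted p = 2.1e-11). Protease and inhibitor thus moved in the same direction, each without overlap. Ehf, an epithelial ETS factor, was at 76.4, 99.1 and 58.8 CPM, against 0.0581, 0.093 and 0.278 CPM in MEFs (9.33 ± 0.85). In iPS-stage SSEA1+ cells Ehf was back at 0.892 ± 0.254 CPM (SD, n = 3). Within day 9 SSEA1+ cells the epithelial genes varied together: replicate 2 was the lowest library for 21 of the 23 junction genes whose mean reached 1 CPM and for 12 of 16 regulators. The same library was lowest for 16 of 20 S phase genes and 19 of 20 ribosome biogenesis genes, so the difference was not confined to epithelial genes; what lies behind it was not tested.

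Promoters of epithelial genes carry E-boxes, the letters CACCTG on either strand (CAGGTG on the other), which Snail and Zeb repressors are known to bind. The windows below each run from 250 bases before to 50 after the start of a risen epithelial gene in RefSeq's GRCm38.p6. For each gene a window that held an E-box was taken, so the presence of E-boxes here was fixed by the choice. E-boxes are in capitals, and Crb3, a polarity gene, was added after its values were seen. Snai2 and Zeb2 fell in the same cells, and whether this bears on these promoters was not tested. Epcam (chr17:87635729-87636028, + strand) held 2, Crb3 (chr17:57061951-57062250, + strand) held 4, Cldn4 (chr5:134946885-134947184, - strand) held 2 and Krt8 (chr15:102004293-102004592, - strand) held 1.
Epcam: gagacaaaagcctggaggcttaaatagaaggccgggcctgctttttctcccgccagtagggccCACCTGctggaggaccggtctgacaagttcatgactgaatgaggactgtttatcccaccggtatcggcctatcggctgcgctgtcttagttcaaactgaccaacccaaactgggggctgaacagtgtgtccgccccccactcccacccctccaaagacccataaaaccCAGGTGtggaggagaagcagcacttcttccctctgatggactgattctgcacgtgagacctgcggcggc
Crb3: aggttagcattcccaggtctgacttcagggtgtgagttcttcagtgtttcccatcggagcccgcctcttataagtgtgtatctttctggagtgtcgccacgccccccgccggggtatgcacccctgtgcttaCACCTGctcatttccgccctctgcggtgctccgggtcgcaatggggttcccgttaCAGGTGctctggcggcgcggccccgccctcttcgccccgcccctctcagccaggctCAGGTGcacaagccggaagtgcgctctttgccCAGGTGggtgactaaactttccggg
Cldn4: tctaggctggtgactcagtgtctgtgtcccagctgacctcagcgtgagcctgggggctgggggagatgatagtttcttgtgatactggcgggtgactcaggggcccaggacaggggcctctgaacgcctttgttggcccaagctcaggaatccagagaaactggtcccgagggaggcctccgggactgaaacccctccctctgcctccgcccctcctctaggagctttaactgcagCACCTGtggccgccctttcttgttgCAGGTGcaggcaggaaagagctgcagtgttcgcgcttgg
Krt8: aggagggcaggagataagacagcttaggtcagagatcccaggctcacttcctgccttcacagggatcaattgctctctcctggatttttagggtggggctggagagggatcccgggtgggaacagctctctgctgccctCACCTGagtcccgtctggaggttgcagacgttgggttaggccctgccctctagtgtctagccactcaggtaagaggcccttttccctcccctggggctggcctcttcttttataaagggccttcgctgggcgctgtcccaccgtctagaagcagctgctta
Of the junction and keratin genes, 17 matched a RefSeq promoter and 15 of them had an E-box, and of the epithelial regulators 5 of 8 did. Over all genes with a window the share was 22.6% (6098 of 27025), and over windows 20.2% of 32851. Other lists of which most members rose were on both sides of the all-gene share. Above it were 5 of 11 naive factors, 5 of 15 other pluripotency genes and 4 of 10 trophoblast genes. So were 2 of 7 endothelial genes and 3 of 12 DNA methylation genes. Below it were 2 of 16 S phase genes, 1 of 16 G2 and M phase genes and 0 of 16 ribosome biogenesis genes. So were 5 of 23 germline genes and 0 of 3 reprogramming factors. Lists of which most members fell were on both sides as well. Below the all-gene share were 2 of 14 collagen genes, 1 of 12 matrix glycoprotein genes and 1 of 12 contractile genes. So were 2 of 12 mesenchymal factors, 1 of 11 TGF-beta genes, 0 of 7 fibroblast surface markers and 2 of 12 LIF pathway genes. Above it were 3 of 11 matrix proteases and inhibitors, 4 of 15 chemokine genes and 6 of 21 interferon genes. So were 5 of 17 genes of the unfolded protein response and 5 of 14 Wnt pathway genes. These are matches of letters in one window per start and say nothing of binding.

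The mesenchymal transcription factors fell as a group. Of 17 tested, 15 fell and none rose, with a median log2 fold change of -4.42. Snai2 (Slug), a repressor of epithelial genes, was at 1.2, 0.491 and 0.239 CPM in day 9 SSEA1+ libraries, against 80.7, 128 and 132 CPM in MEFs (-7.43 ± 0.55, adjusted p = 1.0e-10). Zeb2, a repressor of E-cadherin, was at 5.26, 12 and 6.08 CPM, against 148, 154 and 138 CPM in MEFs (-4.23 ± 0.59). Prrx1, a homeobox factor of limb mesenchyme, was at 17.2, 48.0 and 13.4 CPM, against 894, 615 and 907 CPM in MEFs (-4.94 ± 0.53). These genes kept some reads in every day 9 SSEA1+ library but stayed below every MEF library. Foxc2 and Osr1, of mesoderm, were near 0, Osr1 at 0.0829, 0.0819 and 0.191 CPM against 36.3, 25.7 and 54.8 CPM in MEFs (-8.32 ± 0.93). Twist1 kept more of its level, at 8.0, 11.2 and 10.9 CPM against 76.5, 46.0 and 66.5 CPM in MEFs (-2.65 ± 0.39). Zeb1 had no read in any of the 6 libraries and was not tested. Its level was also 0 in every library of day 9 SSEA1- cells and of SSEA1+ cells of days 6 and 12. Absence of the transcript and a gene ID that collected no reads in counting cannot be told apart here.

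Genes of the extracellular matrix fell almost without exception. Of 18 collagen chain genes 17 fell (median -6.19), of 24 matrix glycoproteins and cross-linkers 22 fell (median -5.97) and of 16 matrix proteases and inhibitors 16 fell (median -4.05), with none risen in these lists. Col1a1, the main chain of type I collagen, was at 92.1, 14.7 and 32.2 CPM in day 9 SSEA1+ libraries, against 36059, 38417 and 38314 CPM in MEFs (-9.66 ± 1.16). Fn1, fibronectin, kept 1766, 1525 and 1462 CPM, against 16205, 44894 and 28396 CPM in MEFs (-4.24 ± 0.40). The collagen cross-linking oxidase Loxl2 was at 17.9, 16.8 and 13.6 CPM, against 2226, 4300 and 2496 CPM in MEFs (-7.55 ± 0.49, adjusted p = 1.7e-11). The fall was thus steep for the fibrillar collagen and its cross-linker and smaller for fibronectin. Mmp14, a membrane-bound collagenase, was at 45.5, 75.0 and 50.8 CPM, against 915, 1290 and 1079 CPM in MEFs (-4.26 ± 0.30), and its inhibitor partner Timp2 at 70.5, 57.0 and 35.4 CPM, against 830, 985 and 1018 CPM in MEFs (-4.12 ± 0.38). The 1 collagen gene that was not called, named after its values were seen, was Col18a1 (-0.07 ± 0.46, adjusted p = 0.91), of basement membranes. The 2 uncalled glycoproteins, also named afterwards, were Fbln1 and Fbn2.

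All 14 tested contractile and filament genes fell (median -3.32). The smooth muscle actin gene Acta2 was at 415, 524 and 215 CPM in day 9 SSEA1+ libraries, against 6240, 10728 and 6987 CPM in MEFs (-4.38 ± 0.56). Calponin 1 (Cnn1) fell further, to 2.98, 1.35 and 1.63 CPM against 338, 993 and 463 CPM in MEFs (-8.23 ± 0.79). Vim, the intermediate filament protein of mesenchymal cells, stayed at 2332, 2226 and 1171 CPM, against 6977, 5359 and 5018 CPM in MEFs (-1.60 ± 0.34, adjusted p = 3.4e-04). Vimentin was therefore lower in every day 9 SSEA1+ library yet remained plainly detected. Of 14 fibroblast surface markers 9 fell and 2 rose (median -3.64). Thy1 was at 31.8, 52.7 and 13.3 CPM, against 925, 830 and 1058 CPM in MEFs (-4.85 ± 0.55), and Pdgfrb at 5.72, 6.76 and 3.16 CPM, against 800, 848 and 956 CPM in MEFs (-7.37 ± 0.73). Cd44 fell less, by 2.04 ± 0.46 on the log2 scale. The 2 risen markers, named after their values were seen, were Cd34 (176, 185 and 108 CPM against 51.7, 10.5 and 20.5 CPM in MEFs) and Ly6a, which encodes Sca-1 (352, 227 and 76.0 CPM against 24.6, 5.49 and 22.1 CPM in MEFs).

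**Figure D3:**
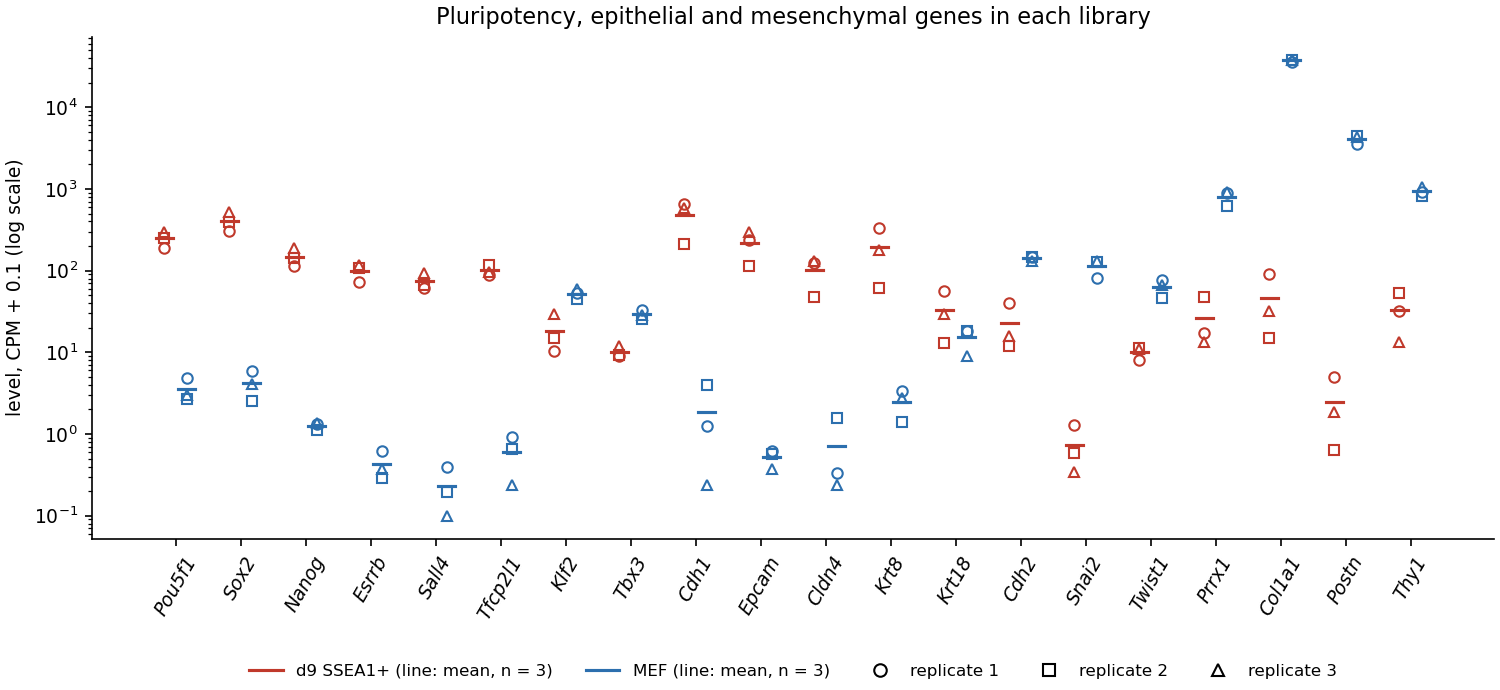
Levels of pluripotency, epithelial and mesenchymal genes in each of the 3 day 9 SSEA1+ libraries (left in each pair) and the 3 MEF libraries (right in each pair), as CPM + 0.1 on a log axis, with a line at each mean. The groups are separate for each gene shown but Krt18, and Snai2 sits at 0.239 to 1.2 CPM in day 9 SSEA1+ libraries and 80.7 to 132 CPM in MEF libraries.

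Genes for the SSEA1 epitope itself were mostly not called, with 2 of 11 tested members risen and 1 fallen. Fut9, the fucosyltransferase known to make Lewis X in mouse embryonic stem cells, was at 41.0, 70.9 and 75.0 CPM in day 9 SSEA1+ libraries, against 0.407, 0.558 and 0 CPM in MEFs (7.41 ± 0.72, adjusted p = 6.9e-09). Fut4, which can make the same linkage, was at 2.73, 2.21 and 1.72 CPM, against 3.72, 4.28 and 1.95 CPM in MEFs, and was not called. The galactosyltransferase B4galt1 fell, to 59.6, 55.7 and 51.2 CPM against 191, 199 and 203 CPM in MEFs (-1.83 ± 0.15). Of these fucosyltransferases, Fut9 was thus clear of its MEF level and Fut4 was within it. St3gal6, a sialyltransferase, was the other risen member (2.74 ± 0.59). Fut11 was just short of the 2-fold limit (-0.93 ± 0.32) and was called as lower in 8 of the alternative settings; without MEF replicate 2, 3 members of the list fell. Fut9 was also higher than in day 9 SSEA1- cells, which had 8.4, 10.7 and 13.8 CPM (2.51 ± 0.51, adjusted p = 5.2e-04).

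TGF-beta signalling, which maintains the mesenchymal state of fibroblasts, lost most of its measured parts. Of 19 tested ligands, receptors and targets, 16 fell and none rose (median -2.32). The ligand genes Tgfb1 and Tgfb3 fell steeply, Tgfb1 to 2.53, 1.52 and 2.01 CPM in day 9 SSEA1+ libraries against 95.1, 214 and 140 CPM in MEFs (-6.21 ± 0.61) and Tgfb3 by 6.30 ± 0.56 on the log2 scale. The receptor Tgfbr2 fell less, to 134, 91.9 and 77.6 CPM against 317, 188 and 327 CPM in MEFs (-1.45 ± 0.39). Among known target genes, Pmepa1 was at 31.2, 21.5 and 21.2 CPM, against 313, 677 and 438 CPM in MEFs (-4.27 ± 0.37). Tgfb1, Tgfb3, Tgfbr2 and Pmepa1 therefore all had day 9 SSEA1+ libraries below MEF libraries, with the smallest change of these in the receptor gene. Smaller changes were not confined to the receptor. The ligand gene Tgfb2 had a mean of 38.6 CPM against 114 CPM in MEFs, beside 101 and 277 CPM for Tgfbr2. Log2 fold changes in the list ran from -8.94 to -0.31. Inhba, a subunit of activin, was at 0.953, 1.68 and 0.0957 CPM, against 136, 395 and 169 CPM in MEFs (-7.97 ± 0.82). Of 18 genes of the Nodal, BMP and Id group, 5 rose and 8 fell: the activin receptor Acvr2b rose (8.7, 14.9 and 17.6 CPM against 1.92, 1.95 and 1.81 CPM in MEFs, 2.85 ± 0.45), while the antagonist Grem1 and the procollagen protease Bmp1 were among those that fell (-7.46 ± 0.72 and -3.22 ± 0.49).

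The FGF pathway was mixed between tiers, with 9 of 18 tested members risen and 3 fallen (median 1.34, or 1.17 with those at 0 at their bounds). Fgf4, the autocrine ligand of embryonic stem cells, was at 72.8, 89.6 and 90.3 CPM in day 9 SSEA1+ libraries, with 1 read in each MEF library (0.0581, 0.093 and 0.139 CPM). Feedback and output genes of the pathway rose with it. The transcription factor Etv5 was at 377, 357 and 423 CPM, against 34.2, 38.7 and 35.1 CPM in MEFs (3.42 ± 0.28, adjusted p = 3.8e-10), and the inhibitor Spry4 at 148, 145 and 117 CPM, against 24.1, 24.3 and 24.8 CPM in MEFs (2.49 ± 0.24). Replicates were close within each group for both. The mesenchymal ligand Fgf7 fell to 2.61, 0.532 and 0.383 CPM, against 57.9, 39.5 and 59.6 CPM in MEFs (-5.45 ± 0.77).

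Of 22 Wnt pathway genes 6 rose and 12 fell (median -1.5). The secreted regulators Dkk2 and Dkk3 fell by 6.86 ± 0.69 and 5.36 ± 0.67 on the log2 scale, Dkk3 to 5.76, 14.8 and 8.47 CPM in day 9 SSEA1+ libraries against 327, 408 and 458 CPM in MEFs. The receptor Fzd1 fell by 3.49 ± 0.39 and the target Ccn4 (Wisp1) by 7.25 ± 0.56. Of 12 genes of the LIF and STAT3 pathway, which supports mouse embryonic stem cell self-renewal, 2 rose and 7 fell (median -1.41). The shared receptor subunit Il6st (gp130) was at 172, 244 and 178 CPM, against 872, 442 and 742 CPM in MEFs (-1.79 ± 0.24), and the kinase Jak1 at 112, 127 and 99.9 CPM, against 489, 376 and 386 CPM in MEFs (-1.89 ± 0.22). Receptor and kinase levels were thus lower in every day 9 SSEA1+ library.

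Proliferation genes were higher in day 9 SSEA1+ cells. Of 20 tested S phase genes 18 rose and none fell (median 1.69), and of 20 G2 and M phase genes 15 rose and none fell (median 1.22). Rrm2, the regulated subunit of ribonucleotide reductase, was at 439, 336 and 436 CPM in day 9 SSEA1+ libraries, against 176, 68.0 and 61.2 CPM in MEFs (1.98 ± 0.36, adjusted p = 6.0e-05). Mcm7, a subunit of the replicative helicase, was at 412, 334 and 410 CPM, against 147, 57.4 and 67.5 CPM in MEFs (2.09 ± 0.33). Cdc20, an activator of the anaphase-promoting complex, was at 357, 219 and 262 CPM, against 127, 39.3 and 45.8 CPM in MEFs (1.98 ± 0.36). In each gene the groups were separate, and MEF replicate 1 was well above the other MEF libraries. Mki67 was at 663, 802 and 833 CPM against 590, 199 and 209 CPM in MEFs (1.20 ± 0.35, adjusted p = 0.0054). The mean log2(CPM + 1) over the G2 and M phase list was 7.59, 7.33 and 7.48 in day 9 SSEA1+ libraries, against 7.01, 5.53 and 5.57 in MEFs. Without MEF replicate 2, or without MEF replicate 3, 8 of 20 genes of this list rose and the Mki67 call was lost; whether MEF replicate 1 had been growing at another rate was not tested.

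Of 16 CDK inhibitor and p53 target genes 5 rose and 1 fell (median 0.59). Cdkn2b, the inhibitor p15, was the member that fell, to 22.7, 7.7 and 4.79 CPM in day 9 SSEA1+ libraries against 92.5, 161 and 133 CPM in MEFs (-3.45 ± 0.65). Its neighbour Cdkn2a, which encodes p16 and p19Arf, was at 153, 58.5 and 56.6 CPM, against 20.7, 81.0 and 57.5 CPM in MEFs, with overlapping groups (0.75 ± 0.54, adjusted p = 0.25). Cdkn1a (p21) overlapped likewise, at 389, 238 and 209 CPM against 129, 460 and 305 CPM in MEFs (-0.10 ± 0.44). Perp, a desmosomal p53 target, rose to 396, 100 and 153 CPM, against 0.697, 0.279 and 0.417 CPM in MEFs (8.75 ± 1.19). Of 20 ribosome biogenesis genes 17 rose and none fell (median 1.36). Polr1b, a subunit of RNA polymerase I, was at 147, 137 and 152 CPM, against 46.0, 30.0 and 27.1 CPM in MEFs (2.07 ± 0.28), without overlap.

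Metabolic genes changed selectively. Of 23 genes of glycolysis and glucose uptake, 3 rose and 11 fell (median -0.90). Slc2a3, a glucose transporter of high affinity, was at 699, 520 and 651 CPM in day 9 SSEA1+ libraries, against 92.3, 29.2 and 40.1 CPM in MEFs (3.53 ± 0.38, adjusted p = 3.0e-08). Slc16a1, a lactate transporter, rose by 2.13 ± 0.38 and Ldhb, a lactate dehydrogenase subunit, by 1.93 ± 0.32. Enzymes of the pathway itself went the other way: Tpi1, triosephosphate isomerase fell by 1.28 ± 0.23 on the log2 scale. MEF replicate 1 had the highest Tpi1 level of the MEF libraries, and without it 7 of the 23 genes fell. None of 30 respiratory chain genes was called, with log2 fold changes between 0.02 and 0.86 (median 0.60, against 0.21 over all genes); with no minimum fold, 16 of them were higher at an adjusted p under 0.05, among them Atp5a1 at 1441, 1242 and 1274 CPM against 999, 690 and 734 CPM in MEFs (0.71 ± 0.17).

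Of 16 genes of threonine, serine and one-carbon metabolism 6 rose and 3 fell (median 0.71). Gldc, the glycine decarboxylase that feeds one-carbon units, was at 96.6, 40 and 143 CPM in day 9 SSEA1+ libraries, against 0.755, 0.186 and 0.139 CPM in MEFs (7.74 ± 0.76). The cytosolic folate enzymes Shmt1 and Mthfd1 rose by 4.21 ± 0.41 and 3.65 ± 0.32, Mthfd1 to 623, 726 and 695 CPM against 74.6, 41.4 and 46.6 CPM in MEFs. Tdh, threonine dehydrogenase, on which mouse embryonic stem cells depend, was called at a low level (1.82, 1.06 and 1.72 CPM, at least 5.29-fold over MEFs at 0). The 3 members that fell, named after their values were seen, were Psat1, Mthfd2 and Aldh1l2, of serine synthesis and the mitochondrial folate branch; without MEF replicate 3, 5 members fell.

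Enzymes that write or remove DNA methylation rose in 7 of 13 cases and fell in none (median 1.26). Dnmt3b, a de novo methyltransferase, was at 131, 48.0 and 116 CPM in day 9 SSEA1+ libraries, against 4.3, 3.53 and 4.59 CPM in MEFs. Tet1, a dioxygenase that oxidises methylcytosine, was at 95.1, 142 and 161 CPM, against 21.0, 7.16 and 8.91 CPM in MEFs (3.40 ± 0.69), and Tet2 rose by 1.62 ± 0.33. The maintenance factor Uhrf1 rose by 2.3 ± 0.43. Writer, erasers and maintenance factor were thus all higher. Dnmt3l, the germ-cell cofactor, reached 8.2, 4.63 and 9.81 CPM, against 0.349, 0.372 and 0 CPM in MEFs (4.74 ± 1.32).

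Of 26 Polycomb subunit genes 13 rose and 2 fell (median 0.85). Cbx7, the chromodomain protein of embryonic stem cell PRC1, was at 55.7, 141 and 162 CPM in day 9 SSEA1+ libraries, against 1.74, 2.6 and 4.45 CPM in MEFs (5.42 ± 0.56). Jarid2, a PRC2 cofactor, rose by 2.51 ± 0.33, Pcgf6, of a variant PRC1, by 1.88 ± 0.19 and Mtf2 by 1.71 ± 0.22. Among 27 genes of chromatin remodelling, H3K9 methylation and histone chaperones 12 rose and 2 fell (median 0.87; 1 fell without day 9 SSEA1+ replicate 1). Chd7, a remodeller, was at 103, 110 and 148 CPM, against 4.01, 7.62 and 4.31 CPM in MEFs (4.50 ± 0.37, adjusted p = 5.2e-10). The BAF subunit genes went in opposite directions: Smarcd1 rose to 159, 186 and 215 CPM, against 47.8, 44.3 and 50.1 CPM in MEFs (1.98 ± 0.23), and its paralogue Smarcd3 fell to 1.37, 2.54 and 1.87 CPM, against 19.9, 20.5 and 19.5 CPM in MEFs (-3.37 ± 0.30).

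Germline genes, many of which are held silent by DNA methylation, were largely still low. Of 25 tested 13 rose and 1 fell (median 1.49, or 0.81 with those at 0 at their bounds), but 8 rose without MEF replicate 2 and 7 in a fit of the 6 libraries alone. Dazl was at 0.414, 0.287 and 0.383 CPM in day 9 SSEA1+ libraries, against 0.291, 0.093 and 0 CPM in MEFs, and Ddx4 at 0.456, 0.246 and 0.431 CPM, against 0.523, 0.093 and 0 CPM in MEFs. Neither was called over all libraries, but without MEF replicate 1 Ddx4 was called as higher (log2 fold change 2.61, adjusted p = 0.03). Piwil2, of the piRNA pathway, rose, at 26.2, 21.0 and 32.0 CPM against 0.0581, 0.465 and 0.278 CPM in MEFs (6.76 ± 0.89, adjusted p = 7.7e-07). As a share of iPS-stage SSEA1+ cells the list had a median of 1.57%, with 20 of 25 genes under 10%.

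Of 37 tested Hox genes, which record the body position of a fibroblast, 15 fell and 1 rose (median -1.01), and 21 were not called. Posterior Hoxd13 was at 15.1, 5.94 and 3.16 CPM in day 9 SSEA1+ libraries, against 52.6, 59.1 and 58.6 CPM in MEFs (-2.81 ± 0.43). Hoxb9 fell to 2.2, 2.01 and 1.1 CPM, against 58.9, 74.4 and 49.5 CPM in MEFs (-5.10 ± 0.53), and Hoxa13 by 2.71 ± 0.38. The gene that rose, named after its values were seen, was Hoxd9 (8.82, 10.7 and 6.32 CPM against 3.08, 4.09 and 4.59 CPM in MEFs); its call was lost without day 9 SSEA1+ replicate 2 and without MEF replicate 1. Of 21 imprinted genes 3 rose and 4 fell (median -0.31). Igf2r fell to 165, 173 and 158 CPM, against 1163, 977 and 933 CPM in MEFs (-2.63 ± 0.23, adjusted p = 9.6e-10), and Nnat rose to 292, 216 and 239 CPM, against 18.4, 5.11 and 3.76 CPM in MEFs (4.73 ± 0.87). H19, Igf2 and Meg3 were not called and varied widely within each group: H19 was at 8110, 4890 and 2313 CPM, against 6557, 575 and 3088 CPM in MEFs, with overlap.

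Stress and immune genes were mostly lower. Of 18 genes of the ATF4 and unfolded protein response 12 fell and none rose (median -1.15). Ddit3, the stress factor CHOP, was at 4.35, 4.71 and 4.74 CPM in day 9 SSEA1+ libraries, against 39.5, 47.0 and 50.5 CPM in MEFs (-3.31 ± 0.34, adjusted p = 1.8e-08). Xbp1, another arm of the response, was at 42.0, 61.7 and 24.3 CPM, against 219, 196 and 180 CPM in MEFs (-2.21 ± 0.27). Of 16 AP-1 and immediate early genes 7 fell and 1 rose (median -1.08), and none rose without MEF replicate 1 or without MEF replicate 2. Fosl2, an AP-1 subunit of fibroblasts, was at 16.4, 24.9 and 15.4 CPM, against 274, 293 and 307 CPM in MEFs (-3.94 ± 0.46). Fos overlapped between groups, at 222, 238 and 117 CPM against 428, 63.6 and 58.0 CPM in MEFs, and the fall of Jun (-1.29 ± 0.50, adjusted p = 0.031) was lost without MEF replicate 1 (adjusted p = 0.17), without day 9 SSEA1+ replicate 1 or 2, and with no filter on low counts.

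Of 23 interferon response and antigen presentation genes 15 fell and 2 rose (median -1.46), and of 22 chemokine and cytokine genes 12 fell and 2 rose (median -2.86; 1 rose without day 9 SSEA1+ replicate 1, MEF replicate 2 or MEF replicate 3). B2m, the light chain of MHC class I, was at 82.1, 44.2 and 47.2 CPM in day 9 SSEA1+ libraries, against 357, 418 and 413 CPM in MEFs (-2.78 ± 0.40). Cxcl12, a stromal chemokine, was at 5.3, 1.92 and 4.07 CPM, against 358, 652 and 499 CPM in MEFs (-7.06 ± 0.83). Ptgs2, the inducible cyclooxygenase, fell to 3.02, 0.655 and 1.29 CPM, against 312, 890 and 399 CPM in MEFs (-8.32 ± 1.03). Bst2 went against its list, at 124, 132 and 93.5 CPM against 16.9, 6.88 and 8.49 CPM in MEFs (3.42 ± 0.43). Ifit2, an interferon-induced RNA-binding protein, was at 1.41, 1.15 and 1.34 CPM against 15.3, 15.6 and 13.6 CPM in MEFs (-3.51 ± 0.53).

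Markers of other cell types were measured to see what else the libraries held. Macrophage markers had a summed level of 10.3, 14.7 and 11.1 CPM in day 9 SSEA1+ libraries, against 5.69, 162 and 29.5 CPM in MEFs, so that MEF replicate 2 stood apart. The 5 of 10 macrophage genes that fell, Csf1r, Ptprc, Itgam and Tyrobp among them, were all lost without that library; the defining markers Ptprc and Csf1r were at most 0.123 and 0.246 CPM in day 9 SSEA1+ cells. The part of macrophage RNA in the chemokine and interferon changes was not tested. Of 10 endothelial genes 7 rose and 2 fell (median 4.34, or 4.02 with those at 0 at their bounds). Tek, the angiopoietin receptor, was at 167, 170 and 111 CPM, against 5.4, 0.93 and 3.48 CPM in MEFs (5.47 ± 0.46, adjusted p = 7.9e-10), whereas Erg, an endothelial factor, fell to 0.29, 0.205 and 0.0957 CPM, against 16.5, 12.1 and 27.4 CPM in MEFs (-6.51 ± 0.93). In the lists for trophoblast (7 rose and 2 fell of 11) and keratinocytes (8 and 2 of 16) more members rose than fell, with medians of 2.92 and 4.54. With members at 0 at their bounds these medians were 2.16 and 1.47. The lists for primitive endoderm (1 and 3 of 9), neural cells (3 and 2 of 9) and muscle and fat (2 and 4 of 9) were each split. Without day 9 SSEA1+ replicate 1, 4 of the trophoblast genes rose. In the keratinocyte list the integrin Itgb4 was at 679, 633 and 520 CPM, against 3.6, 3.63 and 5.98 CPM in MEFs (7.14 ± 0.60), while the defining factor Trp63 was at 0.704, 1.02 and 0.479 CPM, against 0.291, 0.093 and 0.139 CPM in MEFs, and was not called although the groups did not overlap (adjusted p = 0.094); in a fit of the 6 libraries alone it was called (1.83, adjusted p = 0.029). In the trophoblast list Tfap2c, which is also a germ-cell and naive-state factor, rose to 41.0, 80.8 and 85.6 CPM, against 0.116, 0.186 and 0 CPM in MEFs (9.19 ± 1.31).

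Among 12 genes of the primed epiblast and primitive streak 6 rose and 1 fell (median 4.90, or 3.12 with those at 0 at their bounds), but the increase rested on 1 library for several of them. Otx2, of the primed epiblast, was higher in all 3 libraries (2.98, 1.39 and 4.35 CPM, with 2 reads in MEFs, both in replicate 1), as was Zic2 (23.7, 36.1 and 36.7 CPM against 7.85, 5.3 and 10 CPM in MEFs, 2.06 ± 0.37). Some genes of the list were high in day 9 SSEA1+ replicate 1 only, a pattern noted after the values were seen. T (Brachyury) was at 8.29, 0.041 and 0.191 CPM and Cer1 at 5.22, 0.041 and 0.0479 CPM. Their MEF levels were 0 to 0.139 CPM for T and 0 for Cer1. Eomes, called over all libraries at 2.61, 0.328 and 0.622 CPM, was lost without day 9 SSEA1+ replicate 1 (adjusted p = 0.14) and without MEF replicate 1 (adjusted p = 0.09). Fgf5, of the primed epiblast, was also highest in day 9 SSEA1+ replicate 1 (2.15, 0.041 and 0.144 CPM), with a mean of 1.33 CPM in MEFs. Gsc, of the streak, was lower on day 9, with a mean of 0.324 CPM against 2.34 CPM in MEFs. Without day 9 SSEA1+ replicate 1, 2 of the 12 rose, and 2 or 3 rose without any 1 of the MEF libraries.

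**Figure D4:**
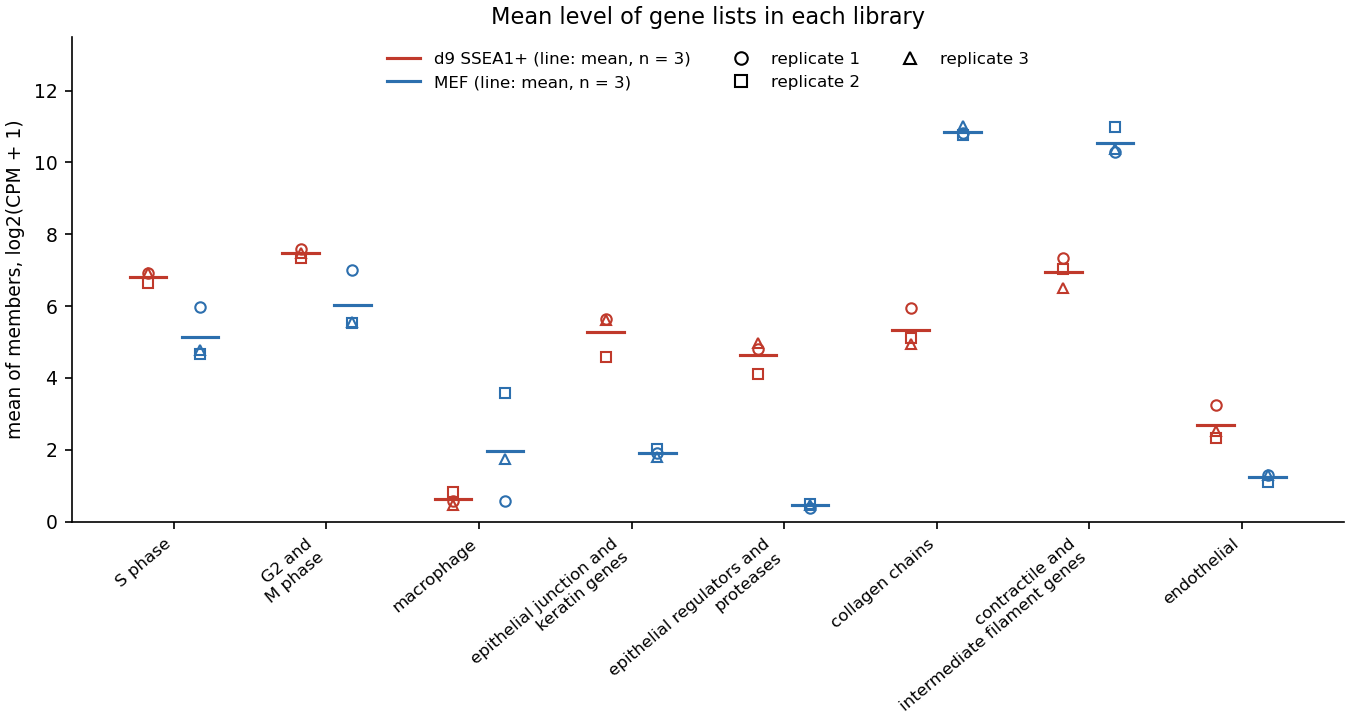
Mean log2(CPM + 1) of gene lists in each library, with day 9 SSEA1+ libraries left of MEF libraries, a point for each library and a line at each mean. MEF replicate 1 lies above the other MEF libraries in the S phase and the G2 and M phase lists (7.01 against 5.53 and 5.57 for G2 and M phase), and MEF replicate 2 above them in the macrophage list.

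Set directly against SSEA1- cells of the same day, day 9 SSEA1+ cells differed in 4374 genes (25.2%), of which 1999 were higher (11.5%) and 2375 lower (13.7%). The naive factors were higher in 14 of 16 cases and the epithelial junction genes in 20 of 24, and mesenchymal factors were lower in 16 of 17. Utf1 was higher, at 116, 65.0 and 160 CPM in day 9 SSEA1+ libraries against 1.15, 0.645 and 1.69 CPM in day 9 SSEA1- libraries (6.66 ± 1.1, adjusted p = 5.9e-05). Cecr2, a chromatin remodelling factor, was at 10.9, 10.5 and 21.9 CPM, against 0.406, 0.114 and 0.294 CPM in SSEA1- cells (5.69 ± 0.71). Mmp3 (stromelysin) was lower, at 0.29, 0.041 and 0.0957 CPM against 29.4, 143 and 24.5 CPM in SSEA1- cells (-8.79 ± 1.36), as were Lum, Mmp13 and Aspn. These genes were named as the largest changes by a rule that required groups without overlap, so their separation is no separate result. Chemokine genes (16 of 22) and interferon genes (14 of 23) were lower, with none higher, while S phase genes (18 of 20) and one-carbon genes (11 of 16) were higher. The macrophage sum was 10.3, 14.7 and 11.1 CPM in SSEA1+ libraries against 19, 310 and 38.5 CPM in SSEA1- libraries, and its part in the immune genes was not tested. Not all day 9 changes from MEFs went with SSEA1: Ehf, for example, was at 110, 103 and 124 CPM in SSEA1- cells.

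Compared with SSEA1+ cells of day 6, 187 genes were called (1.08%), 173 higher (0.998%) and 14 lower (0.0808%). Among the genes that were higher were 6 of 16 naive factors, 9 of 26 other pluripotency genes, 8 of 24 junction genes and 6 of 16 epithelial regulators. Dppa5a, a late pluripotency gene, was at 39.2, 18.5 and 32.9 CPM on day 9, against 0.448, 0.374 and 0.264 CPM on day 6 (6.36 ± 1.08, adjusted p = 0.0019). Lin28a, an RNA-binding protein, was at 34.9, 9.91 and 45.3 CPM, against 0.947, 0.267 and 0.37 CPM on day 6 (5.80 ± 0.88), and Esrrb at 73.2, 107 and 117 CPM, against 9.97, 2.62 and 2.43 CPM on day 6 (4.30 ± 0.80). Each was higher in every day 9 library, which the rule for the largest changes required of Dppa5a and Lin28a. Prom2 and Fabp3 were also higher, and Adgra2, Prrx1, Elf4 and Hoxd13 were lower, Prrx1 at 17.2, 48.0 and 13.4 CPM against 106, 148 and 114 CPM on day 6 (-2.23 ± 0.47). Matrix and contractile lists had no called member. Same-numbered libraries of the 2 days deviated together (r of 0.63, 0.55 and 0.39), and with the replicate number as a block 601 genes were called (505 higher and 96 lower), against 43 in the same 6 libraries without it. The count was 51 without day 6 replicate 2, 72 without day 9 replicate 3, 92 without day 6 replicate 3 and 116 without day 9 replicate 1.

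Against SSEA1+ cells of day 12, 1528 genes were called (8.82%), 598 higher on day 9 (3.45%) and 930 lower (5.37%). Day 9 cells had lower levels of 18 of 25 germline genes (median -3.32) and 9 of 16 naive factors, and higher levels of 24 of 37 Hox genes (median 1.95). Sohlh2, a germ-cell factor, was at 0.0829, 0.041 and 0.144 CPM on day 9, against 14.2, 8.12 and 9.33 CPM on day 12 (-6.83 ± 1.01, adjusted p = 1.8e-04). Dazl was likewise lower on day 9 (-5.24 ± 0.91), as was Otx2, at 2.98, 1.39 and 4.35 CPM, against 65.7, 48.7 and 40.1 CPM on day 12 (-4.15 ± 0.56). Otx2 had no overlap between the days, and Sohlh2 was named by a rule that required none. Vim was still at 2332, 2226 and 1171 CPM on day 9, against 256, 333 and 539 CPM on day 12 (2.35 ± 0.35), and Igf2 at 4392, 3150 and 1371 CPM, against 347, 250 and 382 CPM (3.19 ± 0.91). Kdr, Vat1l and Hoxa11os were also higher; reads of Hoxa11os, an antisense transcript, cannot be told from those of its Hox partner where counting ignores strand. Of 24 epithelial junction genes 3 were lower on day 9 and none higher, with Cdh1 at 616, 643 and 660 CPM on day 12 and a difference of -0.41 ± 0.66 (adjusted p = 0.78). With the replicate number as a block 276 genes were higher, against 363 in the same 6 libraries without it, and the total was 578 without day 12 replicate 1, 682 without day 9 replicate 2, 879 without day 9 replicate 1 and 1012 without day 12 replicate 2.

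**Figure D5:**
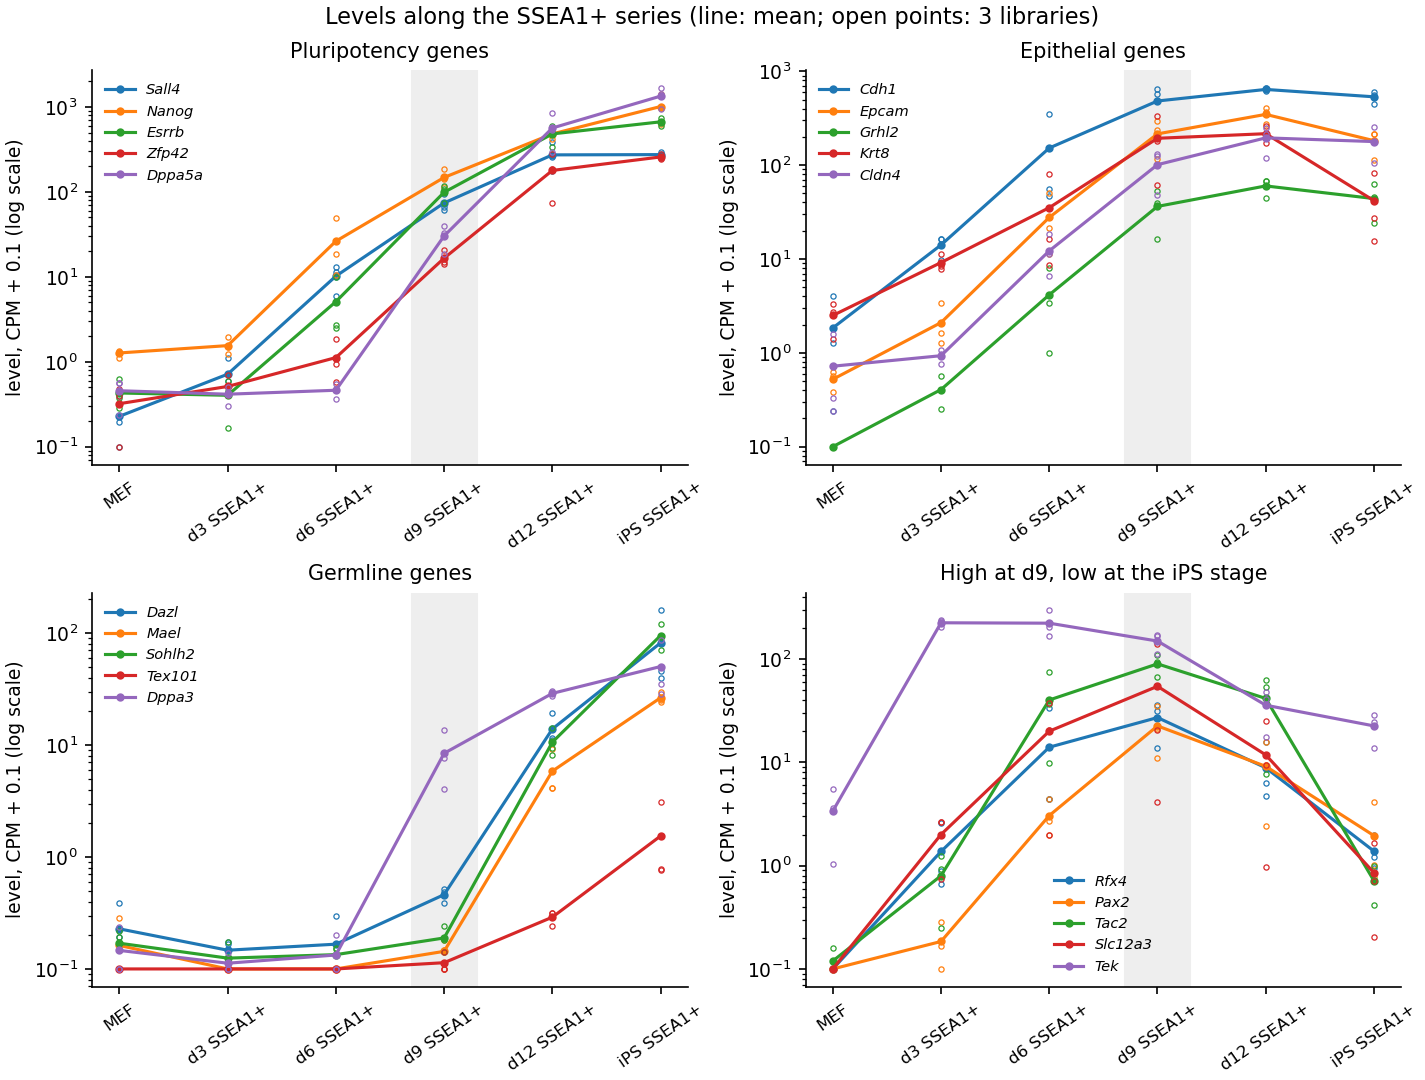
Levels along the SSEA1+ series from MEF through days 3, 6, 9 and 12 to the iPS stage, as CPM + 0.1 on a log axis, with lines through the means and the 3 libraries as open points, and day 9 shaded. One set of genes climbs to the iPS stage (Nanog at 1013 CPM) and another is high around day 9 and low again at the iPS stage (Slc12a3 at 0.753 CPM).

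Placed in the SSEA1+ series, genes that rose over MEFs followed different courses, and the examples here were chosen after their levels were seen, so no test is given. Nanog climbed throughout, with means of 1.17 CPM in MEFs, 1.45 on day 3, 26.2 on day 6, 148 on day 9, 482 on day 12 and 1013 CPM at the iPS stage. Grhl2 reached 36.2 ± 18.4 CPM (SD, n = 3) on day 9 and 59.9 ± 13.3 CPM on day 12, and stayed at 43.9 ± 19.3 CPM at the iPS stage. Slc12a3, Rfx4, Pax2, Gsx1 and Tac2 were instead highest on day 9 by their means. Tac2 was at 0.0194 CPM in MEFs, 0.698 on day 3, 40 on day 6, 89.6 ± 20.6 on day 9, 41.4 on day 12 and 0.613 ± 0.287 CPM at the iPS stage. Rfx4 was at 27.0 ± 11.8 CPM on day 9 and 1.28 ± 0.54 CPM at the iPS stage, and Slc12a3 at 54.3 ± 73.3 and 0.753 ± 0.728 CPM, the day 9 mean of the last resting on replicate 2. Tek had an earlier course, at 224 CPM on day 3, 222 on day 6, 149 on day 9, 35.6 on day 12 and 22.4 CPM at the iPS stage. Several of these genes were not limited to SSEA1+ cells, since day 9 SSEA1- cells had 52.5 ± 43.9 CPM of Slc12a3, 39.7 ± 29.9 CPM of Tac2 and 168 ± 28.6 CPM of Tek.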

How the data were processed

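Poly-A RNA was sequenced from 33 mouse libraries. The authors deposited one table of whole-number read counts per gene for each library. HTSeq 0.6.0, Picard 1.100, STAR 2.3.0 and the build mm9 are listed, without roles, per the submitters' processing notes. The gene annotation and the strand setting of the counting are not given in the sources used here, so overlapping and antisense genes are uncertain. Reads of no feature (6.38% to 10.41% in day 9 SSEA1+ libraries, 5.54% to 6.19% in MEF libraries) and the other special categories were left out of totals and tests.

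From the deposited counts, edgeR 4.0.16 in R 4.3.3 was run on all 33 libraries with one mean per group, TMM scaling, its default filter on low counts (17326 genes kept of 37583) and a robust quasi-likelihood test with 22 residual degrees of freedom before moderation. P-values were adjusted by Benjamini-Hochberg over all tested genes, and a call needed an adjusted p under 0.05 and at least a 2-fold change. Every adjusted p in the text comes from this edgeR test unless another setting is named. SEs are approximate, taken from the fold change and the test statistic. The procedure was tested on simulated data in which few genes changed and the spread was set the same for every gene. Those data are simpler than the ones here, and no result rests on them. Symbols came from a gene name table and matched 32860 IDs. Named genes were the 10 largest changes in each direction among called genes that averaged 10 CPM or more on their higher side and did not overlap, genes marked as core in the lists, up to 4 members of each of 42 lists with the smallest p, and 4 largest changes each way in the other comparisons. A few genes that meet this rule are not reported here. Members and lists were chosen with earlier results of these data known. Of 769 list entries 10 matched no ID. Alternatives were RLE scaling, no filter, DESeq2 1.42.0, the 6 libraries of a comparison alone with and without a replicate block, no minimum fold, a GC correction and leaving out each library. Same-numbered libraries correlated by over 0.1 in every pair for day 9 SSEA1- cells (0.18, 0.29 and 0.31), day 6 (0.63, 0.55 and 0.39) and day 12 (0.31, 0.11 and 0.1, the last above 0.1 before rounding). By the data alone they were taken as paired there, and not for MEFs (0.2, 0.1 and 0.05). For day 12 this is uncertain, since day 9 replicate 2 and day 12 replicate 3, of different number, correlated by 0.24. The MEF values lie close to those of day 12, so the absence of pairing there is uncertain as well. The main fit had no replicate block, so the main counts, SEs and adjusted p-values ignore this pairing. A block was used only in the runs on the 6 libraries of a comparison. Promoter windows are RefSeq's, GRCm38.p6, a build other than that of the counts, and no coordinate was carried between them.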

Additional observations from a re-analysis of the deposited data

Results flagged for a closer look

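Zic2, a zinc finger factor of the primed epiblast and neural plate, differed in its change from MEFs between the SSEA1+ and SSEA1- cells of day 9. Its mean was 32.1 CPM in day 9 SSEA1+ cells and 3.43 CPM in day 9 SSEA1- cells, with 7.72 CPM in MEFs, so the changes from MEFs had opposite signs. The difference between the 2 sorted populations was 3.22 on the log2 scale (edgeR's quasi-likelihood test, adjusted p = 2.4e-06).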

How the results depend on the processing

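Against MEFs, the count of called genes stayed within 1.5 times of 6685 under every alternative run: 5800 to 6627 under another scaling, filter, tool, set of libraries or a GC correction, 9178 with no minimum fold, and 6005 to 6483 leaving out 1 library. The balance of directions was less stable. More genes were lower than higher with RLE scaling (3384 and 3171), DESeq2 (3453 and 3153) and the GC correction (3389 and 3238). So it was in the 6 libraries alone without a block (3073 and 2769) and with it (3060 and 2740). The same held without MEF replicate 2 (3018 and 2987) or MEF replicate 3 (3098 and 3019). Of the 6685 calls, 81.4% to 94.9% were kept under the alternatives that use the same call rule, and none was called in the opposite direction. The median over all genes was 0.21, and 0.0 with no filter, 0.09 with RLE scaling and 0.08 with DESeq2, so small changes are relative to a centre that moves by as much. Depth limits genes near the floor of 3 counts, above all in MEF replicate 3.

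Against day 9 SSEA1- cells, 6726 genes (3489 higher) were called with no minimum fold, and 3346 to 4422 leaving out 1 library. Against day 6 SSEA1+ cells, DESeq2 called 391 (352 higher, 39 lower), and leaving out 1 library gave 51 to 218 (47 to 192 higher, 4 to 26 lower). Against day 12 SSEA1+ cells, 947 genes were higher with no minimum fold, and leaving out 1 library gave 578 to 1899 (228 to 889 higher, 350 to 1010 lower). The cause of these shifts was not tested.

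With the replicate number as a block in the 6 libraries of a comparison, and without it in the same libraries, 5800 and 5842 genes were called against MEFs. There the numbers were not taken to pair the samples. Against day 6, where they were taken to do so, the block gave 601 (505 higher, 96 lower), and 43 were called without it (39 higher, 4 lower). Against day 12, 276 genes were higher with the block and 363 without it, and against day 9 SSEA1- cells 4382 were called with it. Between runs with and without the block, only the counts against day 6 differed by over 1.5 times.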
